A study of Mus musculus with 4 samples.

Results

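Complex I of the respiratory chain was examined through the 45 gene rows whose symbols start with Nduf, out of 18169 rows in the expression table. They comprised 38 subunit rows, with symbols starting with Ndufa, Ndufb, Ndufc, Ndufs or Ndufv, and 7 rows of assembly factors, Ndufaf1 to Ndufaf7, which are described apart from the subunits. The members were picked out by their symbols, in a family chosen with earlier results of these data known. RNA-seq was performed on primary neural stem/progenitor cells (NSCs) that had been dissociated from the periventricular brain of individual newborn C57BL/6 mice and grown in medium with epidermal growth factor and fibroblast growth factor 2. Of the 4 cultures, 2 were wild type (+/+) and 2 lacked both alleles of Chd5, a chromatin remodeler of the CHD family, in the whole animal (Chd5-/-). The growth protocol places all mice at postnatal day 1, but the age entries of the 4 samples read postnatal day 1 and 2 for +/+ and 3 and 4 for Chd5-/-, so that age as entered and genotype cannot be told apart. Values are TPM (transcripts scaled to a fixed total per sample) and divided by transcript length. Level also went with GC content in every sample, which limits comparisons of level between genes.

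Complex I, or NADH:ubiquinone oxidoreductase, is the entry point of the respiratory chain. Its peripheral arm takes electrons from NADH at a flavin and passes them along a chain of iron-sulphur clusters to ubiquinone, and its membrane arm uses the released energy to pump protons out of the matrix. The core subunits carry out the catalysis and are encoded partly in the nucleus and partly in mitochondrial DNA, whereas the accessory subunits, all nuclear, surround the core and are needed for its assembly and stability. The arms are built from modules that bear NADH oxidation (N), ubiquinone binding (Q) and proton pumping. Dividing NSCs draw strongly on glycolysis, and oxidative phosphorylation gains weight as they differentiate into neurons. For NSCs of the adult brain, the paper on these data cites profiling in which mitotically active cells had moved from glycolysis towards oxidative phosphorylation. Complex I genes encoded in mitochondrial DNA were not analysed here.

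Chd5 itself had 0.39 and 0.37 TPM in +/+ against 0.06 and 0.04 TPM in Chd5-/-, in the direction of the labels. The TPM of each sample summed to the same total, from 1000015 to 1000031, and sequencing depth cannot be read from such values. The progenitor genes Nes, at 60.9 to 94.7 TPM, and Vim, at 1068 to 1502 TPM, were present in all 4 samples, and the microglial gene Aif1 was between 0 and 0.17 TPM. Of the 5 neuronal markers, Map2 was at 366 to 785 TPM, Syp at 2.46 to 8.10 TPM, and Dcx, Snap25 and Rbfox3 at 0 to 2.37 TPM. The Chd5-/- samples differed from each other in these markers. Sox2 was at 201 TPM in Chd5-/- replicate 1 and at 432 to 442 TPM in the other samples, Gfap at 0.71 against 13.9 to 19.7 TPM, and Prom1, another progenitor marker, at 45.3 against 0.99 to 4.15 TPM. Egfr, Aqp4 and Aldh1l1 were not lower in that sample than in both +/+ samples, and the mesenchymal genes Col3a1 and Dcn, at 7.41 and 4.17 TPM in that sample, were at 0.06 TPM or less elsewhere. The 5 mesenchymal markers summed to 12.2 TPM in that sample and to 0 to 0.13 TPM in the others. The 7 progenitor markers summed to 3507 and 5815 TPM in Chd5-/- and 7927 and 6506 TPM in +/+. Most of that sum was Fabp7, at 1939 and 3822 TPM in Chd5-/- and 5892 and 4316 TPM in +/+. Of the 7, 5 had a negative log2 fold change and 2, Egfr and Prom1, a positive one. The part of these markers in the complex I values was not tested. In such bulk samples, fewer cells of a kind and less RNA per cell cannot be told apart.

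Of the 38 subunit rows, 37 had a mean of at least 1 TPM over the 4 samples and were tested, as were all 7 assembly factors. No subunit passed an adjusted p-value of 0.05 (limma on log2(TPM + 1), Benjamini-Hochberg over 12576 rows), a threshold that 7 rows passed in all, or 0.0557%. The smallest adjusted p-value of any subunit was 0.120. At an unadjusted p-value under 0.05, 15 subunits were higher in Chd5-/- and 1 was lower, or 40.5% and 2.70% of the subunits, where 21.9% and 2.27% of all rows were. For 19 subunits both Chd5-/- samples exceeded both +/+ samples, and for 6 both were below them, or 51.4% and 16.2%, where 46.3% and 13.0% of all rows did so. The samples of the genotypes overlapped for the remaining 12. The subunits had a median of 0.36 in log2 fold change and all rows 0.34, so the medians were close with TPM as deposited. The subunits differed among themselves far more, from a log2 fold change of -0.89 for Ndufc2 to 2.34 for Ndufb7, with 25 above 0 and 12 below. The plot of TPM by sample shows both kinds side by side.

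**Figure D1:**
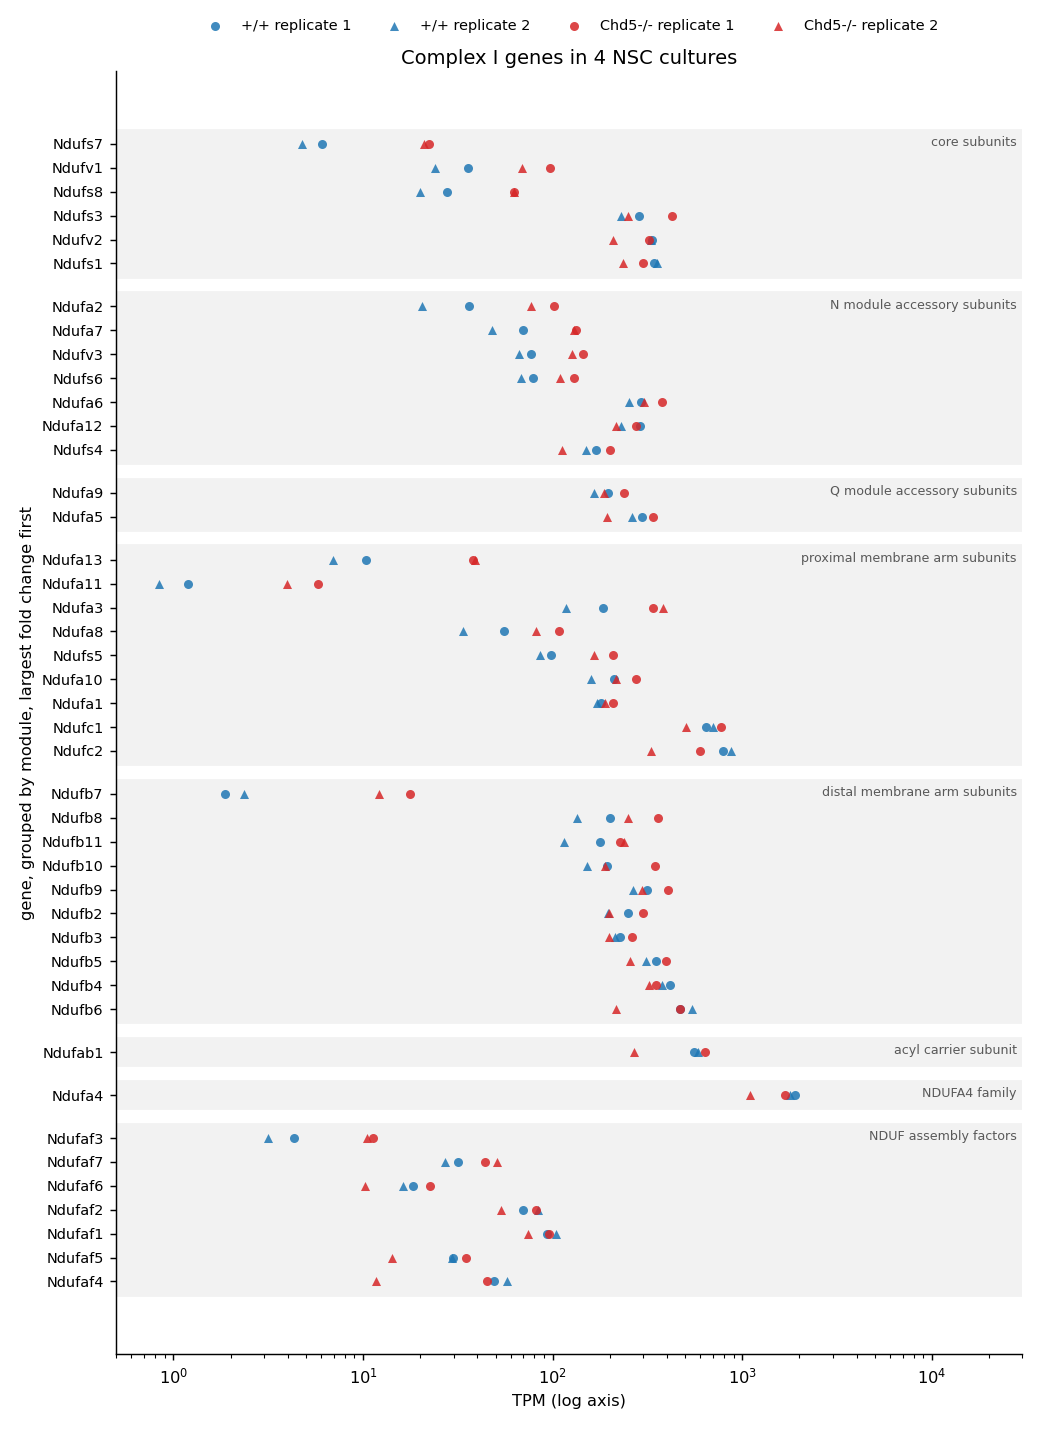
TPM on a log axis (horizontal) of 43 of the 44 complex I genes tested, by module (vertical), in the 2 +/+ samples (blue) and the 2 Chd5-/- samples (red), with replicate 1 as circles and replicate 2 as triangles. Genes of low level in +/+, such as Ndufb7 and Ndufs7, lie further right in Chd5-/-, whereas Ndufc2 and Ndufb6 lie further left in Chd5-/- replicate 2.

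The 7 nuclear core subunits contained both patterns. Ndufs7, which holds the last iron-sulphur cluster before ubiquinone, had the largest fold change of the core and Ndufs1, the largest subunit of the peripheral arm and the carrier of several clusters, the lowest. They also differ in base composition. The opening 120 coding bases of both are printed from GENCODE M21 on GRCm38, 5′ to 3′ on the coding strand, with G and C in capitals, because fold change and GC content went together across the subunits. Ndufs7 lies at chr10:80249121-80256794 on the plus strand and Ndufs1 at chr1:63143596-63176833 on the minus strand.
Ndufs7: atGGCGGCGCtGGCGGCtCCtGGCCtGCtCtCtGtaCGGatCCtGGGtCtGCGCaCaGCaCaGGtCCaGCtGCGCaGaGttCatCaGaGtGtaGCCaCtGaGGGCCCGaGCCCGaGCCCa
Ndufs1: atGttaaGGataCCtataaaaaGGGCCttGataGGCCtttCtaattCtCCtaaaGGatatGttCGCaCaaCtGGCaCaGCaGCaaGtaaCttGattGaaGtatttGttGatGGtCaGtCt
G or C made up 80 of the 120 bases (66.7%) in Ndufs7 and 47 (39.2%) in Ndufs1. Over the whole transcript, GC content was 60.7% for Ndufs7 and 45.1% for Ndufs1.

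Ndufs7 had 6.06 and 4.74 TPM in +/+ against 22.2 and 20.9 TPM in Chd5-/-, or 5.40 ± 0.933 against 21.5 ± 0.926 TPM (mean ± SD, n = 2). The genotypes did not overlap, and the log2 fold change was 1.82 ± 0.27 (SE, adjusted p = 0.120). Ndufv1 and Ndufs8 were also higher in both Chd5-/- samples. Ndufv1, which binds the flavin and oxidises NADH, was at 35.8 and 24.0 TPM in +/+ and at 97.2 and 69.0 TPM in Chd5-/-, a log2 fold change of 1.45 ± 0.31 (adjusted p = 0.120). Ndufs8, a carrier of iron-sulphur clusters in the peripheral arm, was at 27.6 and 20.1 TPM in +/+ and at 62.7 and 62.4 TPM in Chd5-/-. Its log2 fold change was 1.37 ± 0.25 (adjusted p = 0.120).

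Ndufs1 was at 341 and 356 TPM in +/+ and at 300.04 and 234 TPM in Chd5-/-. Both Chd5-/- samples thus lay below both +/+ samples, with a log2 fold change of -0.39 ± 0.24 (adjusted p = 0.357). Ndufv2, which carries an iron-sulphur cluster beside the flavin, was at 334 and 331 TPM in +/+ and at 324 and 207 TPM in Chd5-/-, also without overlap. The gap of Ndufv2 to the +/+ samples came mostly from Chd5-/- replicate 2, and its log2 fold change was -0.36 ± 0.29 (adjusted p = 0.477). Ndufs3, a core subunit of the Q module that holds no cluster, overlapped between genotypes at 284 and 228 TPM in +/+ and 427 and 249 TPM in Chd5-/-. Its log2 fold change was 0.36 ± 0.33 (adjusted p = 0.535) with the deposited values, -0.01 after median-of-ratios scaling and -0.03 without Chd5-/- replicate 1. The core subunits at 30 TPM or less on average in +/+, which were Ndufs7, Ndufs8 and Ndufv1, were the 3 of the largest fold change. That cut was made on the +/+ values that the fold change also uses. In +/+ replicate 2, the mRNA of Ndufs1 was thus at 356 TPM beside 4.74 TPM for Ndufs7. The assembled enzyme holds 1 copy of each protein, but these are mRNA levels, and protein was not measured here. Level also went with GC content in every sample, and the part of GC content in this gap was not tested.

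The 7 accessory subunits of the N module had a median of 0.69 in log2 fold change. In both Chd5-/- samples 5 were higher (71.4%) and none lower, where 46.3% and 13.0% of all rows were. Ndufa2, a small thioredoxin-like accessory subunit, stood out at 36.3 and 20.6 TPM in +/+ and 102 and 76.6 TPM in Chd5-/-. Its log2 fold change was 1.66 ± 0.35 (adjusted p = 0.120), and it was 0.99 ± 0.26 with the GC and length trends removed. In the N module 4 of 7 subunits were higher at an unadjusted p-value under 0.05 and none was lower, in a table where 21.9% of all rows were higher and 2.27% lower. Across the module the log2 fold change reached down to -0.09, for Ndufs4, a subunit whose loss causes Leigh-like disease in mice and people. Both Q module accessory subunits, Ndufa5 and Ndufa9, overlapped between genotypes, with a median log2 fold change of 0.05.

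The proximal membrane arm lies next to the peripheral arm. Of its 9 subunits, 7 were higher and 1 was lower in both Chd5-/- samples (77.8% and 11.1%, where 46.3% and 13.0% of all rows were). The median log2 fold change of the 9 was 1.01. Ndufa13, also known as the cell death regulator GRIM-19, was at 10.4 and 6.97 TPM in +/+ and at 38.0 and 38.8 TPM in Chd5-/-. The Chd5-/- values were close to each other and the +/+ values were 1.49-fold apart, the mean TPM ratio was 4.42 and the log2 fold change was 2.05 ± 0.28 (adjusted p = 0.120). Ndufa13 overlaps Yjefn3 on the same strand and Tssk6 on the other, at chr8:69894180-69902558 of GRCm38. Ndufa11, a membrane-spanning subunit at the contact with complex III, was the lowest of the tested subunits at 1.2 and 0.84 TPM in +/+ and 5.76 and 3.95 TPM in Chd5-/-. Its log2 fold change was 1.52 ± 0.35 (adjusted p = 0.122).

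Ndufc2, a membrane subunit paired with Ndufc1, went the other way. It was at 789 and 872 TPM in +/+ and at 599 and 332 TPM in Chd5-/-, or 831 ± 58.4 against 466 ± 189 TPM. The genotypes did not overlap, although the Chd5-/- samples were 1.81-fold apart, and the log2 fold change was -0.89 ± 0.35 (adjusted p = 0.203). Ndufc2 was the only subunit lower in Chd5-/- at an unadjusted p-value under 0.05, and none was after adjustment. It shares its strand with the overlapping Gm16053. Ndufc1 was at 643 and 703 TPM in +/+ and at 773 and 505 TPM in Chd5-/-, so that the +/+ values lay between those of the Chd5-/- samples. Its log2 fold change was -0.11 ± 0.30 (adjusted p = 0.845), and the partners Ndufc1 and Ndufc2 thus had different values, a difference that was not tested.

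In the distal membrane arm the median log2 fold change was 0.21 over 10 subunits. In both Chd5-/- samples 3 were higher and 2 lower (30% and 20%, where 46.3% and 13.0% of all rows were). Ndufb7, which faces the intermembrane space, held the largest fold change of all 44 genes tested. It was at 1.86 and 2.35 TPM in +/+ and at 17.6 and 12.2 TPM in Chd5-/-, a mean TPM ratio of 7.07 and a log2 fold change of 2.34 ± 0.32 (adjusted p = 0.120). The gene lies at chr8:83566671-83571626 of GRCm38 and has a near-identical copy in 1 other annotated gene, at 91.1% identity. Ndufb6, a membrane-spanning subunit, was at 467 and 545 TPM in +/+ and at 467 and 217 TPM in Chd5-/-. Chd5-/- replicate 1 lay just under the lower +/+ sample, and Chd5-/- replicate 2 alone was far below it, giving a log2 fold change of -0.66 ± 0.41 (adjusted p = 0.367). Ndufb4 was at 418 and 379 TPM in +/+ and at 349 and 321 TPM in Chd5-/-. The Ndufb4 samples were close within each genotype, and the log2 fold change was -0.25 ± 0.22 (adjusted p = 0.516). Another annotated gene matches at least 80% of its coding sequence at 100% identity, so the Ndufb4 value is uncertain.

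Ndufab1, the mitochondrial acyl carrier protein, takes part in mitochondrial fatty acid synthesis as well as in complex I. It was at 554 and 582 TPM in +/+ and at 638 and 267 TPM in Chd5-/-. The 2 Chd5-/- samples were 2.39-fold apart and lay on either side of +/+, and the log2 fold change was -0.46 ± 0.45 (adjusted p = 0.553). Ndufa4 was long counted with complex I and is now placed in complex IV. It was the most abundant member, at 1902 and 1792 TPM in +/+ and 1688 and 1096 TPM in Chd5-/-. Both Chd5-/- samples were below +/+, with a log2 fold change of -0.44 ± 0.32 (adjusted p = 0.432). Its paralog Ndufa4l2, which is induced under hypoxia, was at 0 and 0.11 TPM in +/+ and 0 and 0.12 TPM in Chd5-/- and was not tested. Ndufab1 and Ndufa4 each have near-identical copies in 2 other annotated genes, at up to 99.8% and 93.1% identity.

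The 7 assembly factors, which act on complex I during its construction and are not part of the finished enzyme, had log2 fold changes with a median of -0.22. None passed the adjusted threshold, with adjusted p-values from 0.121 to 0.825. At an unadjusted p-value under 0.05, 2 were higher (28.6%, where 21.9% of all rows were) and none lower. Ndufaf3 and Ndufaf4 work as a pair on the Q module but had opposite fold changes. Ndufaf3 was at 4.30 and 3.15 TPM in +/+ and at 11.3 and 10.5 TPM in Chd5-/-, a log2 fold change of 1.34 ± 0.30 (adjusted p = 0.121). Ndufaf4 was at 48.8 and 57.6 TPM in +/+ and at 45.0 and 11.6 TPM in Chd5-/-. The genotypes did not overlap for either gene, but the Ndufaf4 value rested mainly on Chd5-/- replicate 2, and its log2 fold change of -1.16 ± 0.62 (adjusted p = 0.310) carried the largest SE of all members named here. The difference between the pair was not tested.

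Ndufaf7, a mitochondrial methyltransferase, was at 31.7 and 27.1 TPM in +/+ and at 44.2 and 51.0 TPM in Chd5-/-. It was higher in both Chd5-/- samples, with a log2 fold change of 0.68 ± 0.23 (adjusted p = 0.175). The remaining 4 assembly factors overlapped between genotypes. Ndufaf5, which hydroxylates Ndufs7, was at 29.9 and 29.6 TPM in +/+ and at 34.9 and 14.2 TPM in Chd5-/-. Ndufaf6, needed early for the membrane arm, was at 18.3 and 16.2 TPM in +/+ and at 22.5 and 10.3 TPM in Chd5-/-. For both, the Chd5-/- samples lay on either side of the +/+ samples. Ndufaf2, a late-acting factor related to Ndufa12, was at 70.1 and 84.0 TPM in +/+ and at 81.4 and 53.4 TPM in Chd5-/-. Ndufaf1, of the assembly complex that handles membrane arm intermediates, was at 93.8 and 104 TPM in +/+ and at 96.0 and 74.2 TPM in Chd5-/-. These 4 had log2 fold changes of -0.40, -0.17, -0.22 and -0.22 in that order, with SEs of 0.44, 0.41, 0.29 and 0.24.

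The direction of a subunit went with its base composition and its level. Across the 37 subunits, the log2 fold change and the GC content of the transcript had a Spearman rho of 0.78 and a Pearson r of 0.78, and rho was 0.84 with the GC content of the coding sequence. These are correlations across genes of the same 4 samples, and genes are not independent replicates. In all 12102 rows with a known GC content, rho was 0.62, so the relation was not particular to complex I. The 10 subunits of less than 48% GC had log2 fold changes with a median of -0.10, with 1 higher and 3 lower in both Chd5-/- samples. The 14 subunits from 48% to 54% had a median of 0.34, with 7 higher and 3 lower. In the 13 subunits of 54% GC or more the median was 1.17, with 11 higher and none lower. All rows of the same ranges had medians of -0.05, 0.40 and 0.93. Over all rows of any GC content, 46.3% were higher and 13.0% lower in both Chd5-/- samples, and these shares were not computed by range. The 11 subunits with a log2 fold change of 1 or more, among them Ndufa3, Ndufa7, Ndufa8 and Ndufs5 (named after their values were seen), had GC contents from 49.0% to 60.7%.

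**Figure D2:**
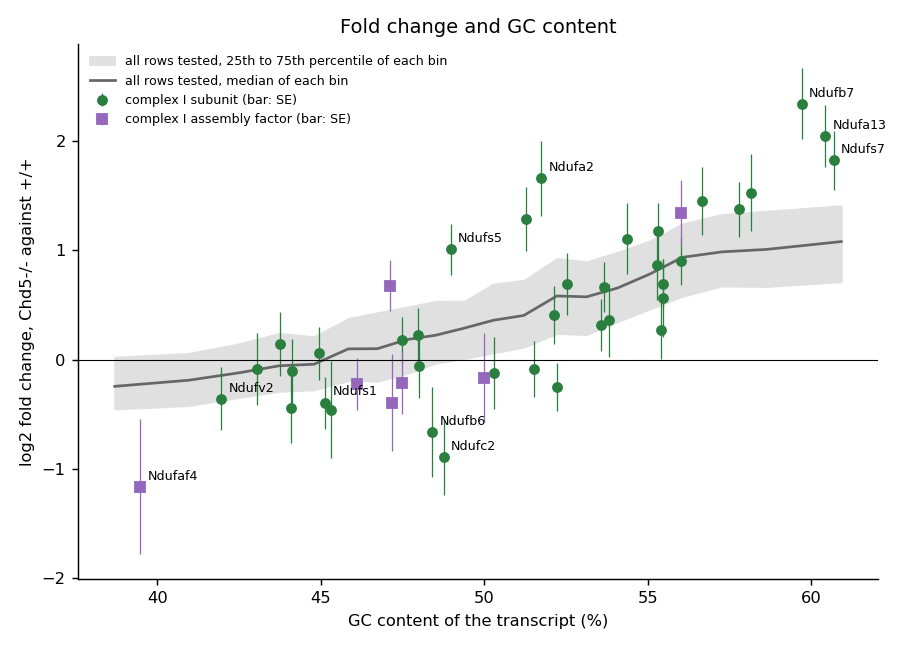
Log2 fold change between Chd5-/- and +/+ (vertical, error bars SE) against transcript GC content in % (horizontal) for the 37 subunits (green circles) and 7 assembly factors (purple squares), over the median (line) and 25th to 75th percentile (band) of all rows in 20 bins of GC content. The subunits follow the slope of all rows, and Ndufb7, Ndufa13, Ndufs7, Ndufa2 and Ndufs5 are among those above the band and Ndufc2 and Ndufb6 among those below it.

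GC content also went with level. Subunit level and transcript GC content had a rho of -0.68 and -0.72 in +/+ against -0.55 and -0.51 in Chd5-/-. Over all rows, rho was -0.38 and -0.43 in +/+ against -0.25 and -0.24 in Chd5-/-, so the weaker relation in Chd5-/- was not particular to complex I. The log2 fold change had a rho of -0.94 with the mean level in +/+, a figure that shares the +/+ values on both sides. All 9 subunits at 300 TPM or more on average in +/+ had a negative log2 fold change. Of the 13 subunits under 100 TPM in both +/+ samples, 12 were higher in both Chd5-/- samples, the exception being Ndufa4l2. Over all rows of any level, 70.4% had a positive log2 fold change and 46.3% were higher in both Chd5-/- samples. Both sets of subunits were picked by the +/+ values that the comparison uses. The same counts were not made for all rows at these levels. The spread of levels among subunits was narrower in Chd5-/-, and the spread over all rows was not computed. The SD of log2(TPM + 1) over the 37 subunits was 2.14 and 2.23 in +/+ and 1.55 and 1.46 in Chd5-/-. From the lowest to the highest subunit, levels spanned 1.2 to 1902 TPM and 0.84 to 1792 TPM in +/+, against 5.76 to 1688 TPM and 3.95 to 1096 TPM in Chd5-/-. The summed TPM of the subunits, at 9961 and 9221 in +/+ and 11453 and 8033 in Chd5-/-, overlapped between genotypes.

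When trends of each sample on GC content and transcript length were removed, the subunits were called in equal numbers both ways. At an unadjusted p-value under 0.05, 5 were higher and 5 lower (13.5% each), where 5.03% and 5.30% of 12102 rows were, and none passed adjustment (smallest adjusted p = 0.405). The 5 higher were Ndufb7, Ndufa13, Ndufa2, Ndufs7 and Ndufs5, with log2 fold changes of 1.39, 1.09, 0.99, 0.87 and 0.58. The 5 lower were Ndufc2, Ndufb6, Ndufb4, Ndufa12 and Ndufb9, with -1.31, -1.06, -0.85, -0.61 and -0.58. Ndufs5, Ndufa12 and Ndufb9 were named here after their values were seen. Of these 10, Ndufb7, Ndufs5, Ndufa12 and Ndufb4 have near-identical copies in other annotated genes, at 91.1%, 99.4%, 99.5% and 100% identity. The median of the subunits became -0.09, and that of all rows was -0.01. With the trends removed, rho between log2 fold change and transcript GC content was still 0.46 over the subunits, and 0.73 with coding GC content.

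**Figure D3:**
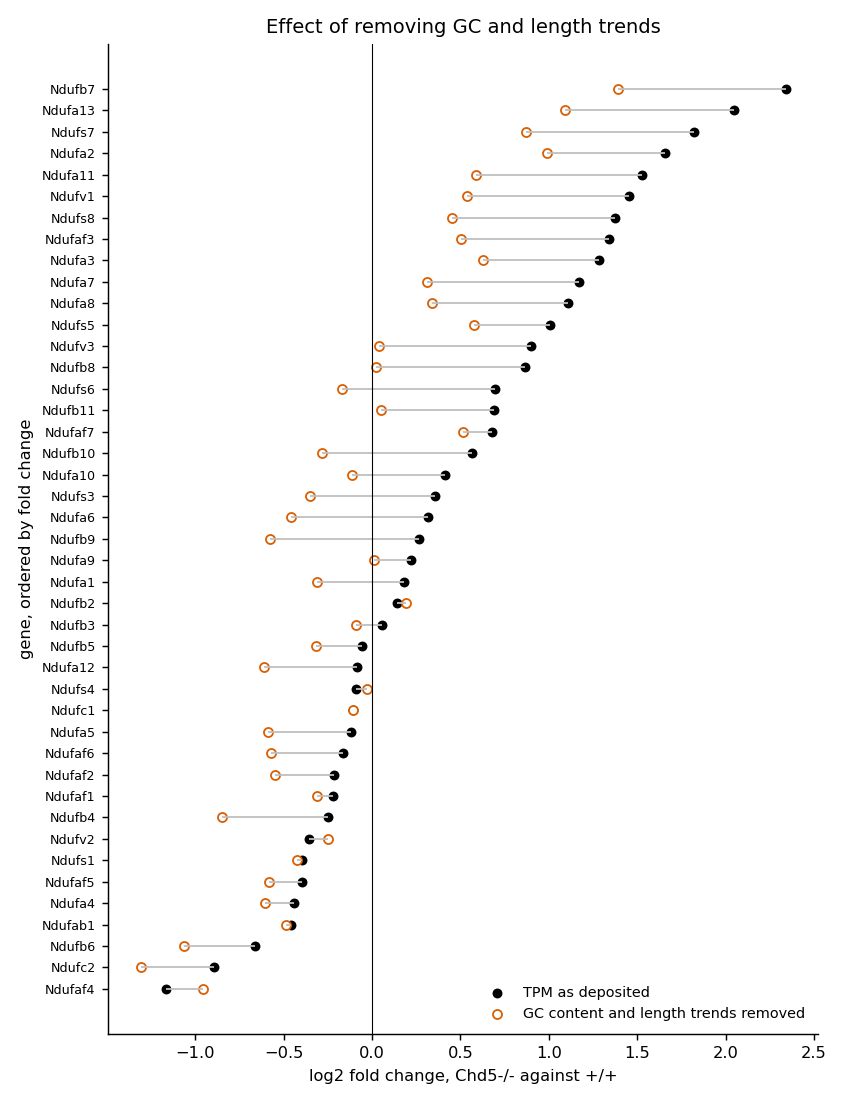
Log2 fold change between Chd5-/- and +/+ (horizontal) of 43 of the 44 complex I genes tested (vertical), with TPM as deposited (black) and with GC content and length trends removed (open orange). Ndufb7 moved from 2.34 to 1.39 and stayed the highest, and Ndufc2 moved from -0.89 to -1.31.

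Scaling of the samples also mattered for the sign. Over all rows the median log2 fold change came to 0.34 with TPM as deposited, 0.13 after rescaling without the 20 most abundant rows, 0.01 after median-of-ratios scaling and -0.05 after quantile normalization. That of the subunits was 0.36, 0.12, -0.01 and 0.23 in the same order. Over these 4 scalings, 14 subunits had a positive log2 fold change each time, 12 a negative one each time and 11 changed sign. Ndufs7, Ndufs8, Ndufv1, Ndufa2, Ndufa11, Ndufa13 and Ndufb7 were among the 14, and Ndufs1, Ndufv2, Ndufb4, Ndufb6, Ndufc1, Ndufc2, Ndufab1 and Ndufa4 among the 12. No assembly factor changed sign. After median-of-ratios scaling, 10 subunits were higher and 3 lower at an unadjusted p-value under 0.05, in place of 15 and 1. These were 27.0% and 8.11% of the subunits, where 12.0% and 10.4% of all rows were called under this scaling.

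The 2 Chd5-/- samples differed from each other in most subunits, while Ndufs8, Ndufa7 and Ndufa13 were nearly equal in the pair. Replicate 1 was higher than replicate 2 for 33 of the 37 subunits, by a median of 0.41 on the log2 scale and by at most 1.26, in Ndufab1. Over all rows, replicate 1 was higher for 49.8%, with a median difference of -0.0021. The +/+ replicate 1 was also higher than replicate 2 for 31 subunits, by a median of 0.25, where 65.9% of all rows were. Against the +/+ mean, 31 subunits were higher and 6 lower in Chd5-/- replicate 1, with a median of 0.59, and 22 were higher and 15 lower in Chd5-/- replicate 2, with a median of 0.13. Of the assembly factors, 5 of 7 were above the +/+ mean in replicate 1 and 2 of 7 in replicate 2.

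**Figure D4:**
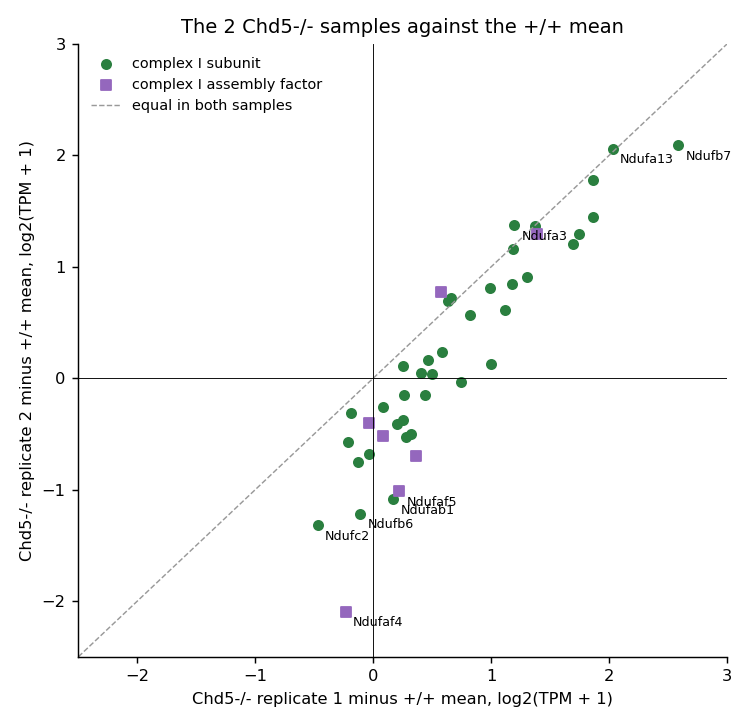
Difference from the +/+ mean in log2(TPM + 1) for Chd5-/- replicate 1 (horizontal) and replicate 2 (vertical), with subunits as green circles, assembly factors as purple squares and a dashed line of equal values. Most points lie below the line, and those from Ndufa3 up to Ndufb7 are far above 0 in both samples, whereas Ndufab1 and Ndufaf5 are above 0 only in replicate 1.

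The size of the fold changes depended on which Chd5-/- sample was kept. Without Chd5-/- replicate 1, the subunit median fell to 0.13, beside 0.35 over all rows. Ndufs7, Ndufs8, Ndufa13 and Ndufb7 were then at 1.78, 1.37, 2.06 and 2.09. Ndufb6, Ndufc2 and Ndufab1 were at -1.21, -1.32 and -1.09. Without Chd5-/- replicate 2, the subunit median rose to 0.59, beside 0.33 over all rows. Ndufs7, Ndufs8, Ndufa13 and Ndufb7 were then at 1.86, 1.38, 2.03 and 2.59. Ndufb6, Ndufc2 and Ndufab1 were at -0.11, -0.47 and 0.17. In both fits the lone Chd5-/- sample was assumed to vary like the +/+ samples, so only effect sizes are given.

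Complexes II to V were set beside complex I because they share its membrane. Over their 41 subunit genes the median was 0.27 in log2 fold change, with 20 higher and 6 lower in both Chd5-/- samples (48.8% and 14.6%, where 46.3% and 13.0% of all rows were). By complex the medians were 0.09 for II (4 genes), 0.75 for III (9 genes), 0.33 for IV (10 genes) and 0.19 for V (18 genes), and none of these 41 genes had an adjusted p-value under 0.05. Log2 fold changes ran from -0.13 to 0.36 in complex II and from -0.81 for Uqcrb to 1.97 for Uqcr11 in complex III. They ran from -0.49 to 1.499 in complex IV and from -0.57 for Atp5f1 to 2.27 for Atp5d in complex V. Each range was narrower than in complex I, but complex I had more genes, 37 tested, and a range widens with the number of genes. At an unadjusted p-value under 0.05, 10 of the 41 were higher (24.4%, where 21.9% of all rows were) and none lower. The difference between complex I and the others was not tested. The 9 further assembly factors of complex I ranged from -0.58 for Tmem126a to 0.62 for Nubpl, and none had an unadjusted p-value under 0.05. Of 11 regulators of mitochondrial biogenesis tested, 1 did, Polrmt, the mitochondrial RNA polymerase, with a log2 fold change of 1.03. Ppargc1a, a coactivator of respiratory genes, was at 55.3 and 61.8 TPM in +/+ and at 61.0 and 36.1 TPM in Chd5-/-, and the genotypes overlapped.

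**Figure D5:**
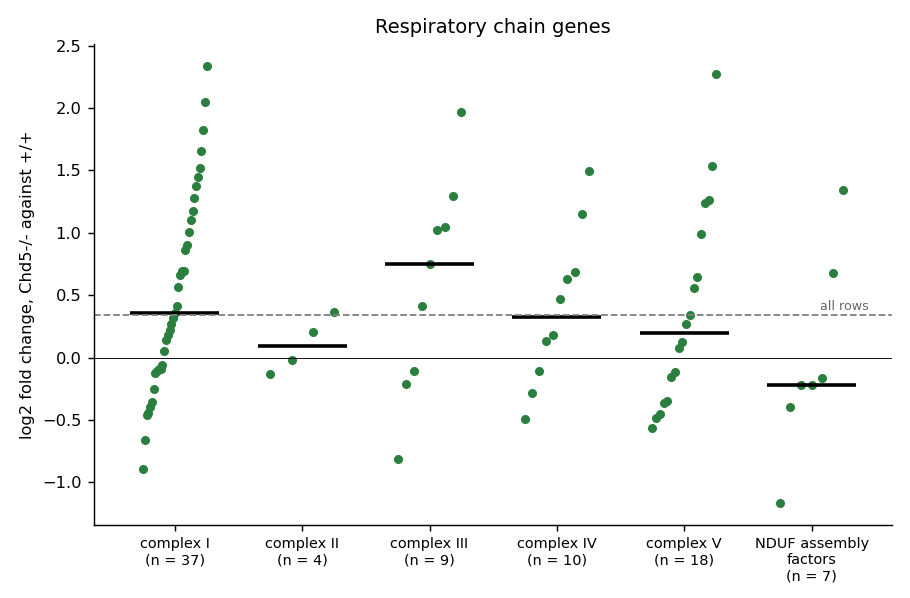
Log2 fold change between Chd5-/- and +/+ (vertical) of each gene of complexes I to V and of the 7 NDUF assembly factors (horizontal), with the median of each as a bar and the median of all rows as a dashed line at 0.34. The medians run from -0.22 for the assembly factors to 0.75 for complex III.

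Promoters were searched for letters bound by known regulators of respiratory genes. Of the 45 members, 39 matched a RefSeq promoter on GRCm38.p6, from 250 bases before to 50 bases after the start. GCGCATGC, the letters of an NRF1 site, was found on either strand in 5 of them (12.8%), where 2.71% of 32851 promoters hold it. They were Ndufa6, Ndufa8, Ndufa11, Ndufaf4 and Ndufaf5, whose log2 fold changes ran from -1.16 to 1.52. CCGGAAG, the letters of an ETS site, was found in 5 (Ndufaf1, Ndufb6, Ndufb7, Ndufs3 and Ndufs8), where 8.86% of promoters hold it. AAGATGGCG, the letters of a YY1 site, was found in 5 (Ndufa9, Ndufc1, Ndufs4, Ndufs6 and Ndufs7), where 1.40% hold it. Members with each motif had fold changes of both signs. None of the motifs contains another, and a match is a description of letters, not of binding.

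Some values are uncertain by sequence. Among the 45 members, 13 share at least 80% of the coding sequence with another annotated GENCODE M21 gene at 90% identity or more, and reads could have been split between them. A further property is overlap with a gene on the other strand, found for 18 members, among them Ndufs1 with Eef1b2 and Ndufa2 with Tmco6. The libraries were stranded, but the strand setting of the counting is not given in the sources used here.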

How the data were processed

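RNA-seq libraries from 4 NSC cultures were analysed, 2 +/+ and 2 Chd5-/-. The authors deposited TPM values in 1 table, and the submitters' processing notes name Bowtie2 2.2.3, RSEM 1.2.20 and mm10. The annotation is not given in the sources used here. TPM sums to a fixed total, and depth is unknown, so precision rests on 2 samples per genotype. The cultures came from individual mice. An exact permutation test of 2 against 2 samples could not go below a two-sided p of 0.333, and none was used.

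log2(TPM + 1) was computed for rows that averaged 1 TPM or more. Genotypes were compared with limma 3.58.1 in R 4.3.3 (trended eBayes, two-sided, genotype as the sole term) and Benjamini-Hochberg adjustment over 12576 rows. A fold change on this scale understates that of low genes. GC content, length and positions came from GENCODE M21 on GRCm38 (96.2% of rows tested). GC and length trends were removed by loess (span 0.5). Near-identical copies were sought among annotated transcripts with BLAST+ 2.17.0. Scripts were tested on simulated data.

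Members and lists were chosen with earlier results of these data known. Named genes were the core subunits, the 5 highest in TPM, the 5 at each end of fold change, subunits lower in both Chd5-/- samples, Ndufab1, Ndufa4, Ndufa4l2 and all Ndufaf rows. Of these, 1 gene is not reported here by name, although it is in the counts and medians. The choices varied were the pseudocount (0.1 or 5), the minimum (none or 10 TPM), the scaling (median-of-ratios, quantile, or without the 20 most abundant rows), GC and length trends, a replicate block, 2 other eBayes fits and each sample's inclusion.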

Additional observations from a re-analysis of the deposited data

How the results depend on the processing

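No adjusted call of a complex I gene arose under any alternative that kept all 4 samples. Leaving out each sample in turn gave 0 to 9 adjusted calls among subunits and 0 to 1 among assembly factors, 6 to 17 subunits higher and 0 to 8 lower at an unadjusted p-value under 0.05, and medians of 0.126 to 0.587. At an unadjusted p-value under 0.05, the count of lower subunits changed from 1 under several alternatives. None was lower with a pseudocount of 5, no minimum TPM, eBayes without the trend or robust eBayes. Of all rows, 2.28%, 2.11%, 1.77% and 2.27% were lower in that order. With quantile normalization and with rescaling without the 20 most abundant rows, 2 were lower, where 8.14% and 6.51% of all rows were. With median-of-ratios scaling, 3 were lower, where 10.4% of all rows were. With GC and length trends removed, 5 were higher and 5 lower, where 5.03% and 5.30% of all rows were. Median-of-ratios scaling moved the median and Ndufs3 to -0.0148 each, and removing the trends moved the median to -0.0910 and Ndufs3 to -0.353. Leaving out Chd5-/- replicate 1 or 2 gave Ndufs3 values of -0.0298 or 0.745, Ndufaf5 -1.01 or 0.223, Ndufc1 -0.414 or 0.201, Ndufaf6 -0.696 or 0.365, Ndufab1 -1.09 or 0.168 and Ndufaf2 -0.515 or 0.0834. The causes were not tested.

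Over all rows, samples with the same number did not deviate together (correlation -0.152), although replicate 1 was the higher sample for most subunits in both genotypes, and the labels tie the number to nothing else. With the replicate block, 14 subunits were higher and 0 lower at an unadjusted p-value under 0.05, where 16.8% and 1.42% of all rows were. With the block and the trends removed, 4 were higher and 2 lower, where 3.68% and 3.60% of all rows were. The subunit median was then -0.0910, with Ndufs3 at -0.353. With the numbers crossed, an alternative chosen after seeing the data, 14 were higher and 1 lower, where 22.3% and 2.26% of all rows were. Ndufa11, Ndufb7 and Ndufaf3 had no value with a minimum of 10 TPM.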
